A study of Mus musculus with 45 samples.

Results

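Macrophages that carried the antigen-presenting protein MHC class II on their surface (MHCII+) were compared with macrophages that did not (MHCII-), 1 day after a cardiotoxin injury of skeletal muscle. The comparison used 8 of the 45 arrays of the series, chosen by titles that name day 1 and 24 h of DT: 4 arrays of MHCII+ cells against 4 of MHCII- cells. Each subset held 2 arrays of DTR+ and 2 of DTR- mice. All were male C57Bl6 mice aged 8 weeks whose muscle had been injected with cardiotoxin, a venom toxin that kills muscle fibres and sets off inflammation and regeneration. DTR+ mice carried Foxp3.DTR, a diphtheria toxin receptor under the promoter of Foxp3, through which diphtheria toxin (DT) removes regulatory T cells; DTR- mice lacked it. The titles give 24 h of DT for all 8 arrays, and the labels do not say from which moment these hours count. Cells were gated as live CD45+ CD11b+ cells positive for the macrophage surface antigen encoded by Adgre1, and as negative for Ly6g and SiglecF, which mark neutrophils and eosinophils, and were sorted straight into TriZol. The marker entries of all 8 arrays read MHCII-, including those titled MHCII+, so the subset was taken from the title. The labels do not state whether arrays of a group are from different mice; every p-value here therefore rests on array-to-array spread, which may be technical.

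Muscle holds resident macrophages, and an injury draws in blood monocytes that turn into macrophages over the following days. Early infiltrating cells clear debris and release inflammatory mediators, while later and resident cells favour repair and the growth of muscle precursors. MHC class II molecules display peptides to CD4+ T cells; they are made by dendritic cells, B cells and part of the macrophages, and their genes share a promoter module that the coactivator CIITA switches on.

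RNA was read on Mouse Gene 1.0 ST arrays of Affymetrix, and values are log2 of the deposited intensities for 19752 genes. Correlations between arrays of the same subset lay between 0.995 and 0.998, and those between subsets between 0.987 and 0.992. Pan-macrophage genes checked the gate. Csf1r, the receptor of the macrophage growth factor, had a mean of 12.62 ± 0.02 (SD, n = 4) in MHCII+ and 12.58 ± 0.03 (SD, n = 4) in MHCII- cells, and Cd68, a lysosomal glycoprotein of macrophages, 13.26 ± 0.05 and 13.25 ± 0.05. Adgre1, which encodes the macrophage antigen of the gate, lay between 12.57 and 12.61 in MHCII+ and between 12.68 and 12.75 in MHCII- cells. The targeted regulatory T cells were outside the gate, so the genotype could not be checked here: Foxp3 averaged 7.09 in MHCII+ and 7.04 in MHCII- cells, both below the median of all values in the table, 7.57. In bulk samples, fewer cells of a type and less RNA per cell cannot be told apart.

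The sort itself used MHC class II protein, so the class II genes check the titles and are given as a description. H2-Aa, the alpha chain of I-A, measured 13.57 to 13.68 on the 4 arrays titled MHCII+ and 7.55 to 7.95 on the 4 titled MHCII-. H2-Ab1, its beta chain, measured 13.68 to 13.77 against 7.81 to 8.29, and H2-Eb1, the beta chain of I-E, 13.21 to 13.36 against 8.32 to 8.55. Cd74, the invariant chain that guides class II molecules to the endosome, measured 13.49 to 13.61 against 10.32 to 10.66, and Ciita, the class II coactivator, 9.15 to 9.25 against 7.18 to 7.48. In each of these 5 genes the arrays titled MHCII+ were all above those titled MHCII-, against the MHCII- entry in the marker field. Of the 11 measured members of a list of class II presentation genes, 10 were higher in MHCII+ (6.58% of all genes tested were) and 0 lower, with a median difference of 1.48; Ctss, the cathepsin that trims the invariant chain, differed by 0.05 and did not pass the test. H2-Ob, H2-Oa and H2-DMa, which regulate peptide loading, were higher by 1.42, 0.75 and 1.35.

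Upstream sequences of genes that separated the subsets are shown because the class II genes share a known promoter module and because the other leading genes have regulators that are well described in myeloid cells. Coordinates and letters are from RefSeq (GRCm38.p6); each run covers 150 bases before or near the annotated start, 5′ to 3′ on the gene's strand. The capitals in the first 4 mark the letters GATTGG or their reverse complement CCAATC, the Y box of class II promoters bound by NF-Y. In Retnla and Ccl17 they mark a pattern bound by STAT6 (TTC and GAA with 4 bases between them), and in Lcn2 and Saa3 TTGCNNAA or its reverse complement, a pattern bound by C/EBP proteins.
H2-Aa, chr17:34287824-34287973, minus strand: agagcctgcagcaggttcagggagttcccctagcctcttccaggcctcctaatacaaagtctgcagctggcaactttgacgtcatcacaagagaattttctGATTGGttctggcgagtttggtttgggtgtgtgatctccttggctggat
H2-Eb1, chr17:34305717-34305866, plus strand: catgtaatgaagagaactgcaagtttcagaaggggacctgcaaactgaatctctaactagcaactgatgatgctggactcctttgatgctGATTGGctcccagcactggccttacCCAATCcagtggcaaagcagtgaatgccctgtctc
H2-Oa, chr17:34092229-34092378, plus strand: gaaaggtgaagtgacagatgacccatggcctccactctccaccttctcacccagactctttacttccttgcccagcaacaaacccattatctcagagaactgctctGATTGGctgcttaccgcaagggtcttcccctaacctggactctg
H2-Ob, chr17:34238755-34238904, plus strand: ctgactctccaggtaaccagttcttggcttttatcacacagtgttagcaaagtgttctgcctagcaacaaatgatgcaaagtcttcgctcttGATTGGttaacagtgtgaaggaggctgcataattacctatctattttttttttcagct
Retnla, chr16:48842459-48842608, plus strand: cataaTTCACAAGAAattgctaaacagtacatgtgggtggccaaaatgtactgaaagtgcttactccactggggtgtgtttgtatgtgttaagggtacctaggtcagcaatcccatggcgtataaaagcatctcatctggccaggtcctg
Ccl17, chr8:94810249-94810398, plus strand: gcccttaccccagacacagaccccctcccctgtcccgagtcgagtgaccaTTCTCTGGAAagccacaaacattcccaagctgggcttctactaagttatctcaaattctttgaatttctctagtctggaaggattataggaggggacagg
Lcn2, chr2:32387840-32387989, minus strand: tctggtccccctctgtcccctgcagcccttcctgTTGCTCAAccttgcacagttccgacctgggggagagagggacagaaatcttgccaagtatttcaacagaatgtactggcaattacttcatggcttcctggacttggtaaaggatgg
Saa3, chr7:46715677-46715826, minus strand: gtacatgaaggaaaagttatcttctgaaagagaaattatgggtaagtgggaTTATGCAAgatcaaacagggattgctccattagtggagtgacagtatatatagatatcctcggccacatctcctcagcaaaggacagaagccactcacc
The GATTGG letters began at position -49 from the start in H2-Aa, -60 in H2-Eb1, -44 in H2-Oa and -58 in H2-Ob, and H2-Eb1 held a further copy on the opposite strand. Over the 250 bases before the start, 6 of 8 class II list genes with a promoter in the table held them, against 16.6% of the 27025 genes in the table. TTGCNNAA was held by 4 of the 10 promoters found for the 12 genes described below as lower in MHCII+ (Lcn2, Mgst1, Saa3, Mmp8), by 2 of the 8 found for the 12 higher genes, and by 10.8% of all genes. The STAT6 pattern was held by Retnla and Ccl17 among the 8, by Lcn2 among the 10 and by 6.76% of all genes. Also searched were an NF-kB pattern, held by 0 of 8 and 0 of 10 against 1.65% of all genes, and TGACG, held by 2 of 8 and 0 of 10 against 19.8%. Both strands were searched for all 5 patterns, and a match is a description of the letters only.

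Across all genes, 1965 of 19752 (9.95%) passed an adjusted p of 0.05 in limma, 1299 (6.58%) higher and 666 (3.37%) lower in MHCII+ cells. Of these, 141 (0.714% of the genes tested) differed at least 2-fold: 116 were higher (0.587%) and 25 lower (0.127%). The median difference over all genes was -0.01. The split depended on scaling: higher genes made up 66.1% of the calls as deposited, 55.3% after quantile normalization and 53.7% with each array centred on its median. Over all 19752 genes, the differences in DTR+ and in DTR- mice correlated at r = 0.793 across genes, which are not independent replicates. Ranges of the 4 and 4 arrays did not overlap in 1790 of the 1965, against 13.8% of all genes tested. The 1965 were called on the same values, so separate ranges among them were largely built in. When the spread was estimated over all 45 arrays of the series, 572 genes passed, 566 of them among the 1965. The plot of level against difference shows that most genes lay near 0 and few lay far from it.

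**Figure D1:**
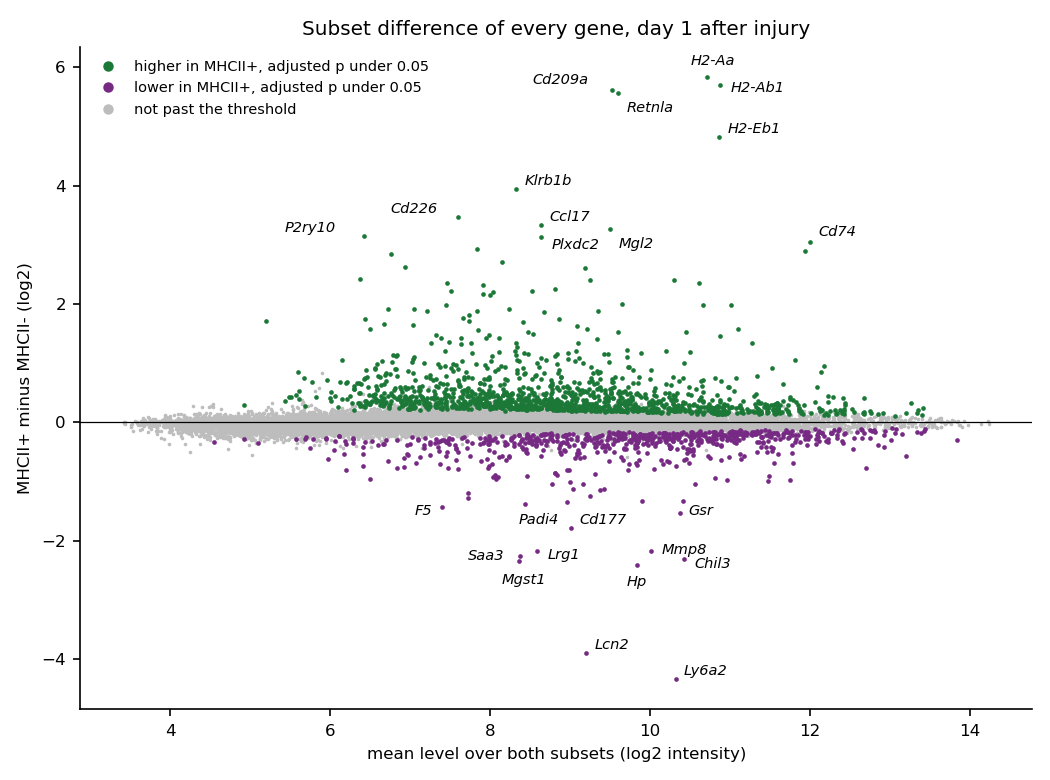
Difference between MHCII+ and MHCII- macrophages (log2, vertical axis) against the mean level of each gene over both subsets (log2 intensity, horizontal axis), day 1, 8 arrays; green and purple points passed an adjusted p of 0.05 and grey points did not. The 12 named genes furthest from 0 in each direction run from H2-Aa at 5.83 to Ly6a2 at -4.34.

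Besides the class II genes, the leading genes of MHCII+ macrophages were lectins, a secreted factor of alternative activation and a chemokine. Cd209a, a C-type lectin of the DC-SIGN family, measured 12.39 and 12.23 in DTR+ and 12.40 and 12.31 in DTR- MHCII+ cells, against 6.88, 6.66, 6.71 and 6.63 in MHCII- cells. The difference was 5.61 (SE 0.0657), a 48.9-fold higher level (limma adjusted p = 1.96e-13), and no array of a subset came near the other subset. Retnla, the secreted protein RELMalpha of alternatively activated macrophages, measured 12.26, 12.45, 12.22 and 12.61 in MHCII+ cells and 7.06, 6.16, 6.60 and 7.47 in MHCII- cells. It was higher by 5.56 (SE 0.207, limma adjusted p = 7.31e-09), and its MHCII- arrays spread more widely than those of Cd209a. Mgl2, a galactose-type lectin (CD301b), lay between 10.94 and 11.27 in MHCII+ and between 7.62 and 8.09 in MHCII- cells, a difference of 3.26 (SE 0.0513, limma adjusted p = 1.96e-12). Ccl17, a ligand of the receptor CCR4, lay between 10.12 and 10.50 against 6.84 to 7.19, a 10.1-fold difference. None of these ranges overlapped, which was a condition for naming the leading genes.

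Further genes at the top of the list code for surface receptors. Klrb1b, an inhibitory lectin-like receptor best known on natural killer cells, lay between 10.05 and 10.52 in MHCII+ and between 6.25 and 6.44 in MHCII- cells, a difference of 3.95 (SE 0.0945). Cd226, an adhesion receptor for nectin-family ligands, lay between 9.08 and 9.50 against 5.65 to 6.04, a difference of 3.47. P2ry10, a receptor of lysophospholipids, lay between 7.71 and 8.11 against 4.82 to 4.90, and Plxdc2, a membrane protein with a plexin domain, between 10.12 and 10.37 against 6.78 to 7.24; each was higher by 3.14. The ranges of all 4 genes were separate by the same condition, and the lowest P2ry10 value among MHCII+ arrays came from DTR- replicate 2. All 4 passed the limma test, with adjusted p between 9.84e-12 and 5.56e-10.

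In the other direction, the genes with the widest gap were Ly6a2 and Lcn2. Ly6a2, a member of the Ly6 family of membrane-anchored proteins, measured 8.38, 8.28, 8.04 and 7.92 in MHCII+ and 12.54, 12.65, 12.33 and 12.44 in MHCII- cells, a difference of -4.34 (SE 0.0547, limma adjusted p = 2.32e-13). Lcn2, the iron-siderophore-binding lipocalin 2, measured 7.25, 7.32, 7.23 and 7.19 against 11.11, 11.53, 11.08 and 10.88, a difference of -3.90 (SE 0.0911, limma adjusted p = 1.17e-10). For both genes the MHCII- arrays formed a high group that no MHCII+ array approached. Hp, the haemoglobin-binding protein haptoglobin, lay between 8.44 and 8.79 in MHCII+ and between 10.97 and 11.12 in MHCII- cells, a difference of -2.41. Chil3, the chitinase-like protein Ym1, lay between 9.11 and 9.44 against 11.43 to 11.74, and Saa3, an acute-phase apolipoprotein, between 7.07 and 7.43 against 9.02 to 9.73; they were lower by 2.31 and 2.26. DTR+ replicate 1 was the lowest MHCII- array for Saa3.

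The remaining lower genes code for enzymes and for surface or secreted proteins of myeloid cells and plasma. Mgst1, a membrane-bound glutathione transferase, differed by -2.34 and Gsr, glutathione reductase, by -1.53. Mmp8, the neutrophil collagenase, lay between 8.75 and 9.19 in MHCII+ and between 10.77 and 11.55 in MHCII- cells, a difference of -2.18. Lrg1, a secreted leucine-rich glycoprotein, differed by -2.18, Cd177, a surface partner of PECAM1, by -1.78, F5, coagulation factor V, by -1.43, and Padi4, which citrullinates histones, by -1.37. Separate ranges in the 2 subsets were a condition for naming the 12 genes in each direction. Among the lower ones, adjusted p in limma ran from 2.32e-13 for Ly6a2 to 6.22e-07 for Padi4. Each of these 24 genes, higher and lower, kept its direction and passed the threshold in every alternative fit of this comparison.

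**Figure D2:**
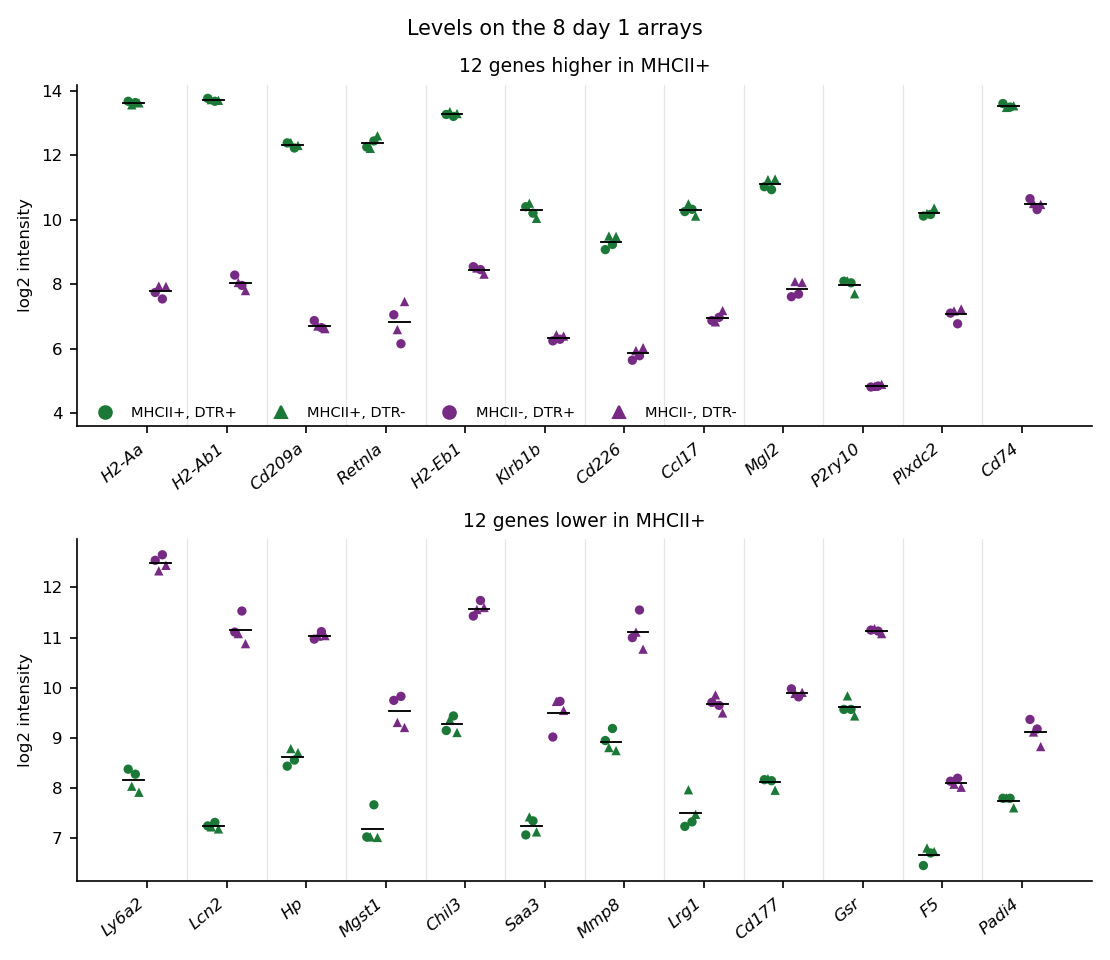
Log2 intensity on each of the 8 day 1 arrays (vertical axis) of the 12 leading genes in each direction (horizontal axis); green is MHCII+ and purple MHCII-, circles are DTR+ and triangles DTR- mice, and the line is the mean of 4 arrays. The 24 genes were chosen to have separate ranges; Retnla spreads from 6.16 to 7.47 in MHCII- cells.

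Genes of Ly6C-high monocytes, inflammatory cells that enter injured muscle early, were lower in MHCII+ macrophages. Of 24 measured, 0 were higher and 19 lower, with a median of -0.44 beside -0.01 over all genes. Members of this list and of those below were chosen with earlier results of these data known. Several are leading genes named above, so one-sided counts may be partly built in and are a description. Each list count is to be read beside 6.58% higher and 3.37% lower over all genes. Besides Hp, Mgst1, Chil3, Cd177, F5 and Padi4, the 19 held Slpi, a leukocyte protease inhibitor, at -1.34 (SE 0.0517, limma adjusted p = 9.47e-09), Ifitm6 at -0.98, Vcan, the proteoglycan versican, at -0.77, Plac8 at -0.68 and F10, coagulation factor X, at -0.57. Slpi lay between 8.25 and 8.33 in MHCII+ and between 9.56 and 9.75 in MHCII- cells. Ccr2, the chemokine receptor through which these monocytes leave the marrow, was high in both subsets, 12.68 ± 0.05 against 12.78 ± 0.04 (SD, n = 4), and its difference of -0.10 did not pass (limma adjusted p = 0.086). Ly6c1 and Ly6c2 share probe sets and were not analysed. Fitted with all 45 arrays, 9 of the 24 passed as lower.

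Several of these genes are also expressed by neutrophils, so neutrophil markers were set beside them. Of 16 measured, 4 were lower (Lcn2, Mmp8, S100a8 and the receptor Csf3r) and 1 higher (Ifitm1), beside 3.37% lower and 6.58% higher over all genes. The mean of the list lay between 7.15 and 7.20 on MHCII+ and between 7.61 and 7.67 on MHCII- arrays. S100a8, a calcium-binding protein abundant in neutrophils, averaged 6.03 and 6.98, both below the table's median of 7.57. The granule genes Ltf, Camp, Ngp, Elane and Mpo, the surface marker Ly6g and the receptor Cxcr2 also averaged below that median in both subsets and did not pass, with differences between -0.22 and -0.02. S100a9, the partner of S100a8, averaged 6.52 in MHCII+ and 6.69 in MHCII- cells. Any part of remaining neutrophils in the result was not tested beyond these values.

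Genes used to mark dendritic cells, a list also chosen with earlier results known, were higher in MHCII+ macrophages. Of 23 measured, 17 were higher and 0 lower, with a median difference of 1.04, and the same count was 15 in the fit with all 45 arrays. Besides Cd209a, Mgl2 and Ccl17, they included Itgax, the integrin CD11c, at 10.39 to 10.56 against 7.89 to 8.34, a difference of 2.41 (SE 0.0689, limma adjusted p = 6.2e-10). Ccr7, the receptor that guides dendritic cells to lymph nodes, measured 9.14 and 9.52 in DTR+ and 10.12 and 9.78 in DTR- MHCII+ cells, against 7.30 to 7.57 in MHCII- cells, a difference of 2.22 (SE 0.124, limma adjusted p = 2.95e-07). The MHCII- arrays lay closer together than the MHCII+ arrays, and the subsets did not overlap. Ccl22, the other CCR4 ligand, was higher by 1.98, Kmo, an enzyme of tryptophan breakdown, by 1.87, Dpp4 by 1.80, Irf4, a transcription factor of type 2 conventional dendritic cells, by 1.70, and Flt3, the receptor of the dendritic cell growth factor, by 0.81. Zbtb46, a transcription factor that sets conventional dendritic cells apart from macrophages, averaged 7.47 against 7.24 and did not pass (limma adjusted p = 0.0914). Xcr1, Clec9a and Itgae, of type 1 conventional dendritic cells, averaged below 7.57 in both subsets and did not pass. The gate does not exclude dendritic cells by a marker of their own, and their part in these differences was not tested.

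Genes of the cell cycle were higher in MHCII+ macrophages. Of 38 measured, 32 were higher and 0 lower, with a median of 0.78, and the mean of the list lay between 8.42 and 8.76 on MHCII+ and between 7.71 and 7.78 on MHCII- arrays. Ccna2, cyclin A2 of S phase and G2, measured 8.20, 8.98, 8.42 and 8.97 in MHCII+ and 6.25, 6.06, 6.36 and 6.50 in MHCII- cells, a difference of 2.35 (SE 0.157, limma adjusted p = 1.32e-06). Within MHCII+ cells, replicate 2 was above replicate 1 in both genotypes. The D cyclins, which drive entry into the cycle, were higher by 2.41 for Ccnd2 and 1.53 for Ccnd1, while Ccnd3 differed by 0.22 and did not pass. Mki67, the proliferation antigen Ki-67, was higher by 1.47, Top2a, DNA topoisomerase II, by 1.43, Bub1, a spindle checkpoint kinase, by 1.58, and the replicative helicase genes Mcm2 to Mcm7 by 0.74 to 1.16. The other members that did not pass were Birc5, Aurka, Tk1, Cdc20 and Cenpf, with differences between 0.07 and 0.24. The count of 32 ranged from 29 to 33 when single arrays were left out and was 25 with all 45 arrays.

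C-type lectin receptors, which bind glycans or other ligands on the cell surface, were divided. Of 31 measured, 18 were higher, 4 lower and 9 did not pass, with a median of 0.25; with all 45 arrays the counts were 11 and 1. The higher members included the neighbours of Cd209a in its family, Cd209d at 2.93, Cd209f at 1.92 and Cd209c at 1.03, whose probes may read related transcripts of the family, which was not tested. Others were the killer-cell lectin-like genes Klri1 at 2.62 and Klrk1 at 1.66, Clec4b1 at 2.43 and Clec10a, the sister gene of Mgl2, at 1.52. The 4 lower members were Clec4e (Mincle) at -0.27, Clec4d at -0.41, Clec5a at -0.52 and Klra2 at -0.88. Mrc1, the mannose receptor CD206, averaged 12.81 ± 0.03 against 12.83 ± 0.03 (SD, n = 4) and did not pass.

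Because Klrb1b, Cd226 and Klrk1 are known from lymphocytes, markers of those cells were examined, and their counts are to be read against the 9.95% of all genes that passed. Among 10 natural killer cell markers only Klrd1, the CD94 chain, was called, at 7.76 to 8.46 in MHCII+ and 5.17 to 5.47 in MHCII- cells. Ncr1, Klrb1c and Gzma averaged 5.12 to 5.66 in either subset and differed by -0.04 to 0.05. Of 11 T cell markers, Cd2 (1.17) and Il7r (0.32) were higher, while Cd3e, Cd3d and Cd3g averaged 5.56 to 7.21, below the table's median, and did not pass. Among 7 regulatory T cell markers, Il2ra (0.88) and Tnfrsf18 (0.56) were higher, and among 9 B cell markers Cd79b (0.39), with Cd79a at 5.66 and 5.59. No marker of fibroblasts, skeletal muscle or satellite cells passed, and 2 of 11 endothelial markers did, Eng (0.70) and Kdr (0.33). On platelet markers 2 of 5 passed as lower, the chemokine genes Pf4 (-0.30) and Ppbp (-0.58).

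**Figure D3:**
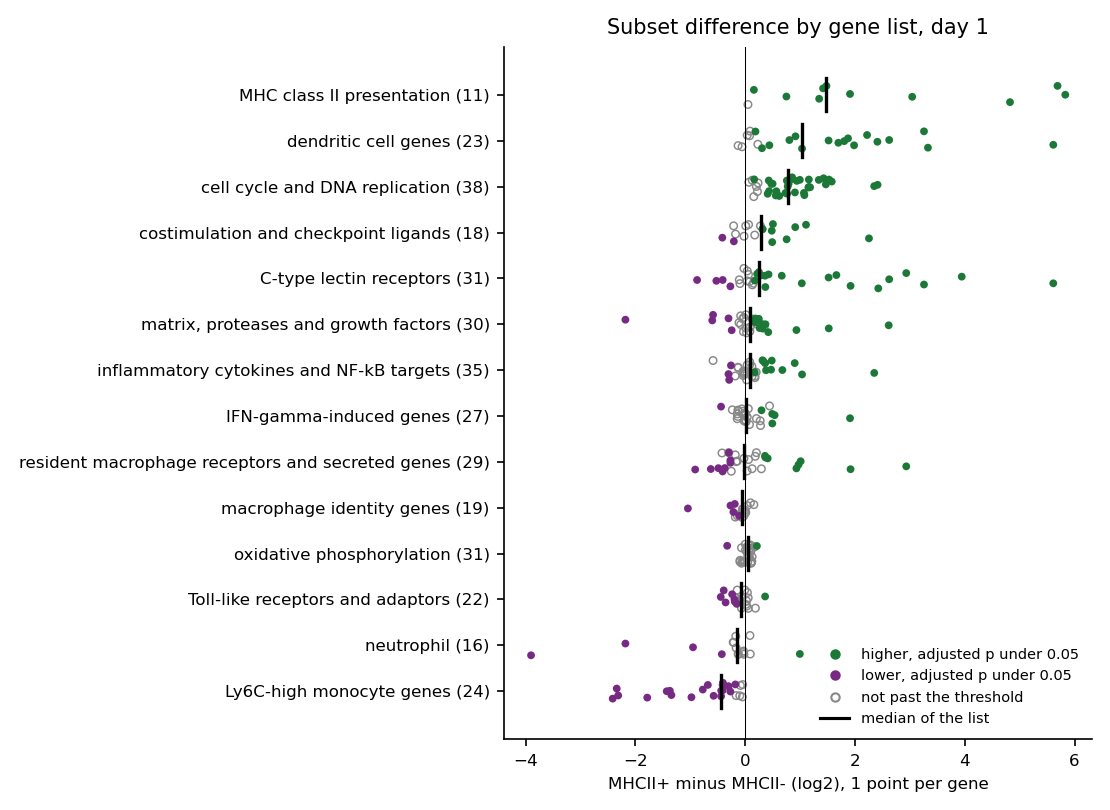
Difference between MHCII+ and MHCII- macrophages (log2, horizontal axis) of each measured member of 14 gene lists (vertical axis, number of genes in brackets); filled green and purple points passed an adjusted p of 0.05 as higher or lower, open points did not, and the black bar is the median of the list. The cell cycle list sits to the right with a median of 0.78 and the Ly6C-high monocyte list to the left with -0.44, while oxidative phosphorylation stays near 0.

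Costimulatory and checkpoint ligands, which accompany antigen presentation to T cells, gave 9 higher, 2 lower and 7 not passed of 18, with a median of 0.30. Cd72, a receptor known from B cells, was higher by 2.26 (SE 0.0867, limma adjusted p = 9.47e-09), Tnfsf9 (4-1BB ligand) by 1.11, Cd83 by 0.91, Cd40 by 0.48 and Cd274 (PD-L1) by 0.49. The classical ligands of CD28 were not among them: Cd80 averaged 11.97 against 11.91 and Cd86 11.42 against 11.60, and neither passed. Class I presentation genes gave 2 higher of 11, H2-Q4 and Tap1, and 0 lower. With all 45 arrays, 0 of the 11 passed. Both lists stand beside 6.58% higher and 3.37% lower over all genes.

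The inflammatory cytokine genes Il1b and Tnf did not pass, while Il6 and part of the NF-kB targets did. Il1b, interleukin 1 beta, measured 12.93 to 13.17 in MHCII+ and 12.86 to 13.16 in MHCII- cells, and Tnf 12.03 to 12.13 against 11.79 to 12.05; both pairs of ranges overlapped and neither gene passed (limma adjusted p = 0.561 and 0.0811). Of 35 inflammatory cytokines and NF-kB targets, 11 were higher and 3 lower, with a median of 0.08. Tnip3, an inhibitor of NF-kB signalling, led them at 11.66 to 11.92 against 9.20 to 9.59, a difference of 2.35 (SE 0.0794, limma adjusted p = 3.29e-09), followed by Traf1 at 1.04 and Il6 at 0.90. With all 45 arrays 3 of the 35 were higher and 0 lower, and the 3 lower members (Osm, Ier3, Lif) were as few as 1 without single arrays. Toll-like receptors and adaptors gave 1 higher and 7 lower of 22. Among the lower were the endotoxin receptor Tlr4 (-0.39) and the RNA sensor Tlr7 (-0.24). In the fit with all 45 arrays 0 passed. Over all genes, 6.58% were higher and 3.37% lower.

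Interferon-induced genes had medians near 0. Of 27 genes induced by interferon gamma, 5 were higher (Ciita, Slamf8, Irf1, Cd274 and Tap1) and 1, Upp1, was lower, beside 6.58% higher and 3.37% lower over all genes. Their median was 0.01, and 1 of the 27 was higher with all 45 arrays. Irf1 gave 0.49 on the probe set used and 0.13 on another. Of 28 genes induced by type I interferon, Siglec1 alone was higher, at 0.38, and it lost the call without single arrays and with all 45 arrays. Cxcl9, a chemokine induced by interferon gamma, measured 7.10, 6.95, 8.16 and 6.82 in MHCII+ cells and 6.66 to 6.99 in MHCII- cells, with 1 high array, DTR- replicate 1. Nos2, the inducible nitric oxide synthase, averaged 6.68 and 6.81, below the table's median in both subsets.

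Genes of alternative activation went both ways. Of 17 genes of arginine metabolism and alternative activation, 7 were higher and 5 lower, and 4 and 2 with all 45 arrays. Retnla, Mgl2, Ccl17 and Socs2, an inhibitor of cytokine signalling (1.17), were among the higher ones, and Chil3, Arg2 (-0.78) and Ccl24 (-0.63) among the lower. Arg1, arginase 1, measured 11.13, 11.38, 11.70 and 11.13 in MHCII+ and 11.69, 11.79, 12.31 and 11.72 in MHCII- cells. Its ranges overlapped narrowly, and the call at -0.54 (SE 0.133, limma adjusted p = 0.0231) was lost without any one of 5 single arrays and with all 45 arrays (adjusted p = 0.989). The lower count of 5 was as small as 3 without single arrays.

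Receptors and secreted genes of resident macrophages were split evenly: of 29, 8 were higher and 8 lower, with a median of -0.02, and 6 and 2 with all 45 arrays. Over all genes, 6.58% were higher and 3.37% lower. Lyve1, a hyaluronan receptor of tissue-resident macrophages, lay between 9.67 and 10.35 in MHCII+ and between 8.63 and 9.47 in MHCII- cells, a difference of 1.01 (SE 0.125, limma adjusted p = 0.000243). Igf1, a growth factor for muscle, was higher by 0.93, while Ednrb, the endothelin B receptor (-0.91), Ccl24 and Cd163, the haemoglobin scavenger receptor (-0.49), were lower. Vsig4, a complement receptor of resident macrophages, lay between 5.25 and 5.68 against 5.45 to 6.01 and did not pass (limma adjusted p = 0.317). Complement C1q genes were higher, by 0.65 for C1qa, 0.33 for C1qb and 0.60 for C1qc. Of all 17 complement genes measured, 5 were higher, 1 lower and 11 did not pass, with a median of -0.04. The pan-macrophage list gave 0 higher and 5 lower of 19, a count of 2 to 7 without single arrays and 1 with all 45 arrays; Tfec, a transcription factor of macrophages, was lower by 1.04, and Adgre1, at -0.11 (limma adjusted p = 0.0346), lost its call in 7 of the 8 fits without 1 array.

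Lipid, matrix and metabolic genes completed the comparison. Of 19 genes of lipid-associated macrophages, 8 were higher, among them lipoprotein lipase Lpl (1.05) and the nuclear receptor Pparg (0.70), and 4 lower; the higher count was 4 with all 45 arrays. Mmp12, the macrophage elastase, was higher by 2.61 (10.11 to 10.78 against 7.84 to 7.96, SE 0.104, limma adjusted p = 1.24e-08), and Pdgfb, a growth factor for mesenchymal cells, by 1.52. Their list of 30 matrix, protease and growth factor genes gave 12 higher and 5 lower, but 6 higher without DTR+ MHCII+ replicate 2, 7 without DTR+ MHCII- replicate 1 and 3 with all 45 arrays. Axl, a receptor for apoptotic cells, was higher by 1.88, in a list of 21 efferocytosis genes with 4 higher and 4 lower (2 and 1 with all 45 arrays). Glycolysis and hypoxia genes gave 2 higher and 6 lower of 32, with 2 to 7 lower without single arrays and 0 with all 45 arrays, and oxidative phosphorylation genes 1 and 1 of 31. The last pair of counts is near the background of 6.58% higher and 3.37% lower.

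To ask whether the loss of regulatory T cells altered the difference between subsets, the MHCII effect in DTR+ mice was compared with that in DTR- mice by an interaction term. limma called 0 of 19752 genes (0%), with 544 at an unadjusted p under 0.05, and 0 in each alternative fit. The largest difference between genotypes was that of Cd209f, which was 1.34 in DTR+ and 2.50 in DTR- mice. Its arrays read 7.20, 7.51, 8.04 and 7.95 in MHCII+ and 6.11, 5.91, 5.38 and 5.62 in MHCII- cells, so that the DTR- mice had the wider gap. Cd209a differed by 5.54 and 5.69 in the 2 genotypes, Retnla by 5.75 and 5.38, Lcn2 by -4.03 and -3.77 and Ccna2 by 2.43 and 2.27. The median SE of the difference between genotypes was 0.14. In simulated data of this design, 27.3% of differences of 0.5 and 77.6% of differences of 1 (log2) were recovered. The 0 calls therefore do not show that the genotypes were equal.

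**Figure D4:**
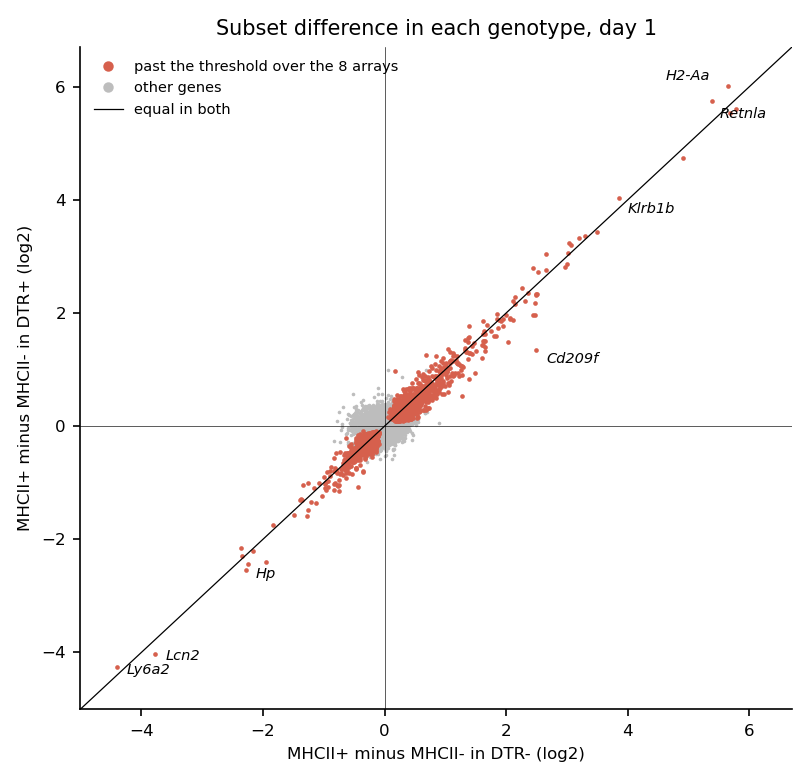
Difference between MHCII+ and MHCII- macrophages (log2) of each gene in DTR+ mice (vertical axis) against DTR- mice (horizontal axis), day 1, 2 arrays per group; red points passed an adjusted p of 0.05 over the 8 arrays, and the line marks equal differences. Red points run from Ly6a2 at -4.26 and -4.41 to H2-Aa at 6.01 and 5.65, and Cd209f lies off the line, at 1.34 and 2.50. The red genes were called on both genotypes together, so their closeness to the line is partly built in.

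The day 1 subset difference was then set against that of DTR- macrophages on day 4 of the injury. These were gated the same way at the same age but had no DT in their titles, so time and DT cannot be told apart. The effect differed for 246 genes (1.25%), 227 (1.15%) more positive on day 1 and 19 (0.0962%) more negative. This count ranged from 79 without day 1 MHCII+ replicate 2 to 431 without day 4 MHCII+ replicate 3, and leaving out any 1 of the 8 arrays moved it by more than 1.5 times. Lyve1 measured 10.04 and 10.35 in MHCII+ and 8.88 and 9.47 in MHCII- cells on day 1, but 8.84 and 8.42 against 11.59 and 11.74 on day 4. The subset effect was thus 1.02 on day 1 and -3.04 on day 4, a difference of 4.06 (SE 0.264, limma adjusted p = 1.72e-05). Cd209f turned in the same way, from 2.50 to -1.34. Vsig4, near the bottom of its range in all 4 day 1 DTR- arrays (5.52 to 6.01), measured 5.75 and 5.68 in MHCII+ and 9.13 and 9.34 in MHCII- cells on day 4, so that its effect went from -0.26 to -3.52.

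Of the 29 resident macrophage genes, 13 were more positive on day 1 than on day 4 and 0 more negative, with median effects of -0.03 and -0.59; 7 remained in the count without day 1 MHCII+ replicate 2 or day 4 MHCII- replicate 2, and 6 with all 45 arrays. For the cell cycle list the median subset difference changed sign, but not every member did. Ccnd2 was higher in MHCII+ by 2.49 on day 1 and 1.21 on day 4, and Ccnd1 by 1.65 and 0.30. Ccna2 was higher in MHCII+ by 2.27 on day 1 and differed by -1.05 on day 4, where its MHCII- arrays read 10.53 and 10.44 and its MHCII+ arrays 9.42 and 9.45; the difference of 3.31 passed (SE 0.38, limma adjusted p = 0.000799). Over the 38 cell cycle genes, 23 were more positive on day 1 and 0 more negative, a count of 10 to 24 without single arrays and 14 with all 45 arrays. Their median effect was 0.91 on day 1 and -0.51 on day 4, beside -0.0014 and -0.0033 over all genes. The mean of the list stood at 8.47 and 8.76 in MHCII+ on day 1 and at 8.48 and 8.75 on day 4, while in MHCII- it stood at 7.71 and 7.78 on day 1 and at 9.06 and 9.08 on day 4.

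Retnla kept high levels in MHCII+ cells on both days, 12.22 and 12.61 on day 1 and 12.46 and 12.48 on day 4. In MHCII- cells it measured 6.60 and 7.47 on day 1 and 9.98 and 10.04 on day 4, so that the effect was 5.38 and then 2.46 (difference 2.92, SE 0.29, limma adjusted p = 0.000274). Among named genes that passed, Saa3 was the most negative on day 1 relative to day 4, at -2.36 against -0.52 (difference -1.84). The differences of Lcn2 (-3.25, limma adjusted p = 0.18) and Ly6a2 (-1.92, limma adjusted p = 0.308) did not pass. The call of Saa3 was lost with all 45 arrays (limma adjusted p = 0.103). Mefv, Cd244a, Cd177 and Napsa were more negative on day 1 by 1.47, 1.36, 1.31 and 1.19. Each lost its call without day 1 MHCII+ replicate 2 or day 4 MHCII- replicate 2. Cd244a, Cd177 and Napsa also lost it without most of the other single arrays. Cd177 lost it after quantile normalization, after centring and with array weights, and Napsa with array weights and with all 45 arrays.

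Uninjured muscle at day 0 gave the last comparison, with the same day 1 arrays. Day 0 mice were 10 weeks old, with no DT in their titles, and their gate lists no step for CD45, DAPI or SiglecF. Time therefore cannot be told apart from age, DT and gate. The subset effect differed for 911 genes (4.61%), 577 (2.92%) more positive and 334 (1.69%) more negative on day 1, and for 399 to 1544 genes without single arrays. After quantile normalization the more positive genes made up 54.3% of the calls in place of 63.3%. Retnla was high in both subsets at day 0, 13.50 and 13.50 in MHCII+ and 12.97 and 13.12 in MHCII- cells, an effect of 0.46 against 5.38 on day 1 (difference 4.92, SE 0.29, limma adjusted p = 2.68e-06). Cd209a also differed less at day 0, at 13.35 and 13.34 against 11.71 and 12.03 on day 0, an effect of 1.48 against 5.69. H2-Aa in MHCII- cells measured 11.03 and 11.83 at day 0 and 7.95 and 7.94 on day 1, while its MHCII+ arrays stayed between 13.57 and 13.89. The 11 class II list genes were divided, with 5 more positive and 4 more negative on day 1. Their median effect was 2.43 at day 0 and 1.38 on day 1. Ciita went the other way from H2-Aa, with an effect of 3.02 at day 0 and 1.85 on day 1 (limma adjusted p = 0.00443). The 38 cell cycle genes had a median effect of 0.55 at day 0 and 0.91 on day 1, with 2 more positive on day 1 and 0 more negative.

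Vsig4 was lower in MHCII+ cells at day 0, 7.49 and 6.98 against 11.58 and 11.57, an effect of -4.34 beside -0.26 on day 1. Lyve1 had an effect of -0.92 at day 0 and 1.02 on day 1 (limma adjusted p = 0.0011). Ngp, a neutrophil granule gene, measured 11.23 and 8.24 in the MHCII- cells of day 0 and 5.04 to 5.34 in the other day 0 and the day 1 DTR- arrays, so that its difference of 4.51 rested on 2 unequal arrays. The whole list of 16 neutrophil markers stood apart there: its mean was 9.97 and 7.81 in the MHCII- cells of day 0, replicate 1 the higher, against 7.08 and 7.11 in MHCII+, while the DTR- arrays of day 1 read 7.67 and 7.63 against 7.20 and 7.18. The median effect of the list was -1.68 at day 0 and -0.15 on day 1, and Ngp alone passed. Without replicate 1 of the day 0 MHCII- cells the median difference between the days was 0.24 in place of 1.02, Ngp differed by 3.01, and 787 genes passed in place of 911. The part of neutrophil RNA in the day 0 comparison was not tested beyond these values. Genes whose effect was more negative on day 1 included Klri1, with 5.59 at day 0 against 2.52, Akr1c18, a steroid-metabolizing reductase, with 4.95 against 1.84, and Serpinb10, a protease inhibitor, which was at 2.26 on day 0 and at -1.36 on day 1. Gpr141b, an orphan receptor, went from 2.78 to -0.24. Ly6a2 had -1.58 at day 0 and -4.41 on day 1, but its difference of -2.82 (limma adjusted p = 0.0495) was lost in 7 of 8 fits without 1 array and with all 45 arrays. Klrb1b, Cd226 and Ccl17 were higher in MHCII+ cells by more at day 0 (6.17, 5.15 and 4.88) than on day 1 (3.86, 3.50 and 3.30), and these differences passed.

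**Figure D5:**
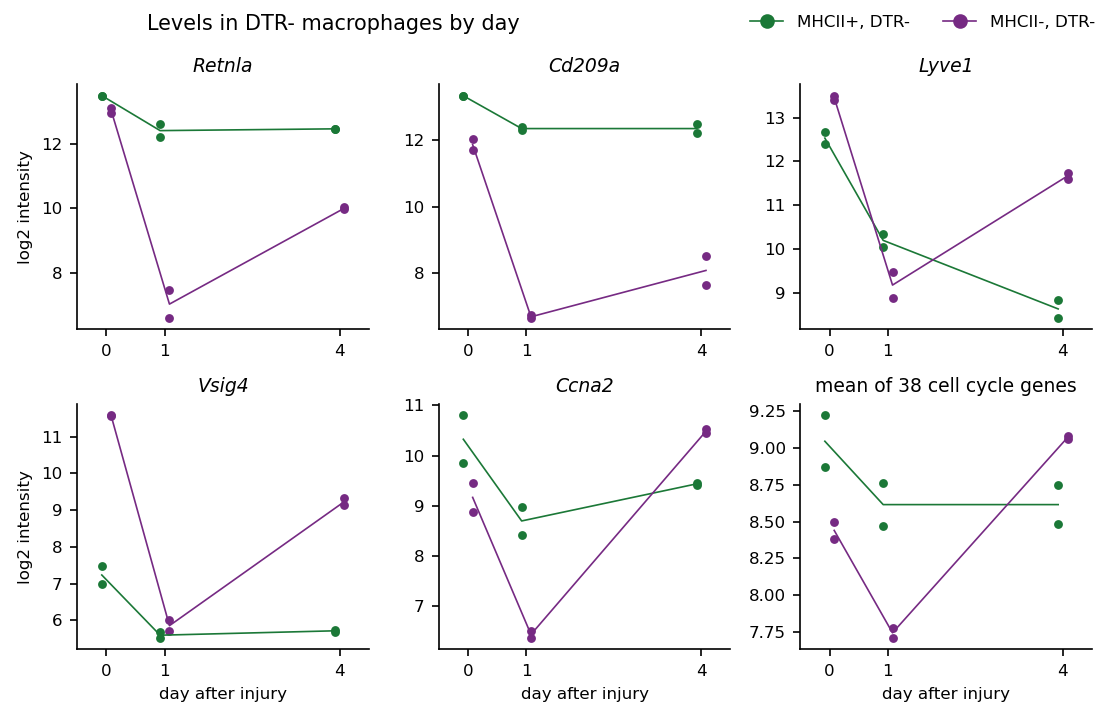
Log2 intensity on each array (vertical axes) by day after injury (horizontal axes) of 5 genes and of the mean over 38 cell cycle genes, in DTR- macrophages; green is MHCII+, purple MHCII-, points are arrays (2 per group) and lines join the group means. In MHCII- cells all 5 genes and the cell cycle mean are lowest on day 1. Lyve1 crosses over between day 0 and day 1 and again between day 1 and day 4, and Ccna2 between day 1 and day 4.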

How the data were processed

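Sorted muscle macrophages were profiled on Mouse Gene 1.0 ST arrays of Affymetrix. The authors deposited intensities on a linear scale; the submitters' processing notes name Affymetrix Power Tools and RMA, with versions not given in the sources used here. Of 24922 probe sets, 21425 carry 1 gene symbol in the platform annotation, 1399 several and 2098 none listed; 1 probe set per gene, that of highest mean, left 19752 genes. The authors' intensities were taken to log2 with no offset or filter. No pair of day 1 arrays held identical values. The precision is limited by the number of arrays.

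limma 3.58.1 in R 4.3.3 (lmFit, eBayes with an intensity trend) fitted subset and genotype on the 8 day 1 arrays (5 residual degrees of freedom), an interaction on the same arrays, and differences of subset effects between days on 12 DTR- arrays. P-values were adjusted by Benjamini-Hochberg over all genes in each of the 4 comparisons, with a threshold of 0.05. The script was tested on simulated data. The genes named were up to 12 per direction at or above the table's median of 7.57 with separate ranges, the 4 of smallest p in each list, a fixed set, and up to 5 per direction between days; other list members named were chosen after their values were seen. Members and lists were chosen with earlier results of these data known. Figures used Python 3.11.15 with matplotlib 3.10.9. Promoters were matched by symbol to RefSeq.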

Additional observations from a re-analysis of the deposited data

Results flagged for a closer look

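Within the 4 arrays of a subset, 1 array stood apart from the other 3 (Dixon's 95% criterion, which chance meets in about 5% of groups) for the genes and lists that follow, given as log2 intensity with the range of the other arrays. On DTR- MHCII+ replicate 2 these were P2ry10 at 7.71 (8.05 to 8.11), Padi4 at 7.61 (7.80 to 7.81), C1qa at 12.15 (11.93 to 11.95), Msr1 at 12.54 (12.69 to 12.72), Pfkfb3 at 9.78 (9.85 to 9.87) and Ebf1 at 6.00 (5.79 to 5.80). On DTR- MHCII+ replicate 1 they were Igf1 at 9.86 (10.30 to 10.33), Mrc1 at 12.84 (12.79 to 12.80) and the mean of the matrix list at 9.82 (9.78 to 9.79). DTR+ MHCII+ replicate 2 stood apart for Mgst1 at 7.67 (7.02 to 7.03) and C1qc at 12.24 (12.44 to 12.46), and DTR+ MHCII+ replicate 1 for Pglyrp1 at 7.07 (7.10 to 7.11).

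Among MHCII- arrays, DTR- replicate 1 stood apart for Cd14 at 12.83 (12.75 to 12.76), Ccl24 at 11.25 (10.57 to 10.67), Ccnb2 at 8.06 (8.32 to 8.36), Igf1 at 9.01 (9.33 to 9.39) and Arg1 at 12.31 (11.69 to 11.79). DTR- replicate 2 did so for Ddit4 at 7.81 (8.09 to 8.15), Itgam at 12.53 (12.62 to 12.64) and the mean of the Ly6C-high monocyte list at 11.44 (11.54 to 11.56). DTR+ replicate 1 did so for Cd36 at 12.25 (12.19 to 12.19), Adgre1 at 12.75 (12.68 to 12.68), Ctla4 at 5.89 (5.82 to 5.82), Chrna1 at 6.29 (6.61 to 6.65) and Cd244a at 10.06 (9.91 to 9.93), and DTR+ replicate 2 for Uqcrc1 at 10.82 (10.99 to 11.03) and the mean of the fibroblast list at 7.19 (7.11 to 7.12). Many of these gaps are under 0.1 on the log2 scale. The wider ones were those of Ccl24, Mgst1, Arg1 and Igf1.

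The subset effect differed between day 1 and day 4 in DTR- mice by a test of that difference in limma for Lyve1 (4.06), Cd209f (3.84), Ccna2 (3.31), Vsig4 (3.26) and Retnla (2.92), and in the other direction for Saa3 (-1.84), Mefv (-1.47), Cd244a (-1.36), Cd177 (-1.31) and Napsa (-1.19). Between day 1 and day 0 it differed for Retnla (4.92), Ngp (4.51), Cd209a (4.21), Vsig4 (4.08) and H2-Aa (3.21), and in the other direction for Serpinb10 (-3.62), Akr1c18 (-3.11), Klri1 (-3.07), Gpr141b (-3.03) and Ly6a2 (-2.82). The cell cycle genes, as a list, were higher in MHCII+ on day 1, with a median of 0.91 in DTR- mice, and had a median of -0.51 on day 4.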

How the results depend on the processing

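The count of 1965 genes between subsets was 572 with all 45 arrays, 757 with DTR+ arrays only and 646 with DTR- arrays only, and ran from 1394 to 2050 without single arrays. The interaction with genotype gave 0 genes in every alternative, single arrays left out included. The 246 genes that differed between day 1 and day 4 became 99 with all 45 arrays and 79 to 431 without single arrays; the values were 161 and 79 without day 1 MHCII+ replicate 1 or 2, 149 and 140 without day 1 MHCII- replicate 1 or 2, 127 and 431 without day 4 MHCII+ replicate 2 or 3, and 122 and 81 without day 4 MHCII- replicate 1 or 2. The 911 genes that differed between day 1 and day 0 became 427 with all 45 arrays and 399 to 1544 without single arrays; those that moved the count by over 1.5 times were day 0 MHCII+ replicates 1 (1544) and 2 (603), day 1 MHCII+ replicates 1 (418) and 2 (466) and day 1 MHCII- replicates 1 (399) and 2 (462). The cause of these changes was not tested.

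Replicate numbers are shared between subsets, but same-numbered arrays correlated at 0.0626 in DTR+ and 0.358 in DTR- mice, so they were not taken as pairs; with the replicate block 2510 genes passed, 1960 of them among the 1965, and the interaction gave 0. For day 1 against day 0 the numbers are shared too, and same-numbered arrays of day 0 correlated at 0.176; a replicate block by day and number, added after seeing the data and with 2 residual degrees of freedom, gave 1716 genes, 907 of them among the 911. No paired analysis was possible for day 1 against day 4 because the subsets of day 4 share 1 number only. Quantile normalization, centring, the dim filter, an offset of 32, means of probe sets, array weights and no trend kept each of the 4 counts within 1.5 times, and no called result changed direction in any alternative. Of the values of the 123 called genes named in the subset comparison, 2180 kept the call over the alternatives and 151, from 46 genes, lost it. Of the values of the 59 genes named without a call, 1039 kept their sign and stayed without one, 25 gained one and 26 changed sign with no call. Of the genes named between days, 28 values (5 genes) lost the call for day 4 and 12 (Ly6a2) for day 0, while 132 and 158 kept it. Of the list medians, 689 moved by less than the spread between arrays and 108 by more. Background at single probes could not be examined from the deposited intensities, and differences of genes near the low end may be understated.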
